A study of Mus musculus with 6 samples.

Results

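The genes described here are the replication-dependent histone genes of the mouse together with H2afx, the histone variant gene of DNA damage signalling, and Slbp, the gene of the stem-loop binding protein. They were taken from a table of 27998 genes as every row whose symbol begins with Hist1h, Hist2h, Hist3h or Hist4h, plus H2afx and Slbp, provided that at least 20 UMIs (unique molecular identifiers, each marking 1 captured RNA molecule) were counted over all cells. Of 71 such rows, 65 reached that minimum, 63 of them rows of the Hist family. Hist1h2ba with 20 UMIs and Hist1h2ad with 24 were the members just inside it, and Hist1h4m and Hist1h2ah with 16 each were just outside. The other rows left out were Hist2h2bb, Hist2h2aa2, Hist1h2br and Hist1h2bq, with 13, 9, 1 and 0 UMIs. Symbols alone decided membership, so not every row need be a replication-dependent gene. Hist1h2al, with 495 UMIs, is annotated as a processed pseudogene and is counted with the H2A members.

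Germ cells of the fetal testis were profiled by droplet single-cell RNA sequencing at embryonic day 14.5 in 3 samples labelled Rb1 cKO, in which the retinoblastoma gene was conditionally deleted, and 3 samples labelled wildtype, which served as controls. All 6 came from male mice on a mixed C57/B6 and 129 background, and in all 6 the cells were sorted as tdTomato+. The labels name neither the Cre driver of the knockout nor the deleted exon, and they do not say whether replicates came from separate animals or litters. The p-values thus reflect only how far these samples differ, and part of that may be technical.

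The Rb1 protein holds back E2F-driven genes and so limits the start of S phase. Histone proteins package newly made DNA, and cells make most of the histone mRNA during S phase from clustered, mostly intronless genes. These mRNAs usually end in a short stem-loop in place of a poly(A) tail. Slbp binds that stem-loop and acts in the processing, export, translation and stability of the mRNA. Around this age the germ cells of the testis stop dividing. The libraries were primed on poly(A), so they see only part of histone mRNA, that is, molecules that carry a tail or were primed inside the transcript, and the share that was missed was not measured.

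The stem-loop was searched on the transcribed strand as GG, 2 bases of any kind, CTTTT, 1 of any kind, AG, 2 of any kind and CC, in the GENCODE M21 transcripts of build GRCm38. It was found in 41 of the 62 Hist members that matched a transcript, and in 98 of all 58797 protein-coding transcripts, or 0.167%. Many transcript models of the other 21 members may end before it, though not all are short, with 2620 bases for Hist2h2be and 1156 for Hist1h2bc. Only 1 transcript per member was searched, so the absence of these letters does not show that a gene lacks the stem-loop. The sequences below are shown because they are the element that Slbp binds and because they differ between members. The capitals mark the stem-loop and the lower case letters 5 bases on each side. They are 5′ to 3′ on the transcribed strand, in DNA letters.
Hist1h1e, linker histone H1, chr13:23621777-23621802, minus strand: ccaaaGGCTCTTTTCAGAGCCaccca
Hist1h1d, linker histone H1, chr13:23555782-23555807, plus strand: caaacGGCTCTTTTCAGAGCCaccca
Hist1h2ae, histone H2A, chr13:23570663-23570688, minus strand: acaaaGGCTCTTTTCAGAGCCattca
Hist2h2ac, histone H2A, chr3:96220413-96220438, minus strand: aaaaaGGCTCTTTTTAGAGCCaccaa
Hist1h2bm, histone H2B, chr13:21722501-21722526, plus strand: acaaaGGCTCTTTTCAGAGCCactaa
Hist1h3e, histone H3, chr13:23561898-23561923, minus strand: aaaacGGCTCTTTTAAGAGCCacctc
Hist1h4d, histone H4, chr13:23581945-23581970, plus strand: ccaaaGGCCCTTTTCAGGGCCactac
Hist1h4i, histone H4, chr13:22040961-22040986, minus strand: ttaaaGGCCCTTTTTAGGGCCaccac
H2afx, histone variant H2A.X, chr9:44335235-44335260, plus strand: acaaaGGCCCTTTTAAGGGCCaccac

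Among the 41 stem-loops with 1 unbroken position, that of H2afx included, 7 different sequences occurred, and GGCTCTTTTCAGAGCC was the most frequent with 23. The annotated transcript ran on for at least 100 bases past the stem-loop in 22 Hist members and for fewer in 19. The median count was 190.5 UMIs per member in those 22 members, 211 in those 19 and 169 in the members without the letters. The medians of the 3 sets were therefore close. Of the Hist members with a position, 51 lay on chromosome 13, 8 on chromosome 3, 2 on chromosome 11 and 1 on chromosome 6. Slbp lies on the minus strand at chr5:33634952-33652574.

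Promoter sequences from RefSeq (build GRCm38.p6, 250 bases before to 50 after the start of each gene) matched 55 Hist members and Slbp. The searched motifs were CCAAT, the TATA box spelled TATAAA, the octamer ATTTGCAT, the linker histone element AAACACA, and 4 spellings of an E2F site (TTTCCCGC, TTTGGCGC, TTTCGCGC and TTTGCCGC), each on both strands. CCAAT occurred in 47 of the 55 windows (85.5%), against 41.1% of 27025 gene promoters, and it was in 3 of 11 H4 windows but in every window of the other classes. TATAAA occurred in 33 of 55 (60.0%), against 15.7%. The octamer was confined to 6 of 15 H2A and 6 of 13 H2B windows, or 21.8% of the 55, against 1.97% of all genes. AAACACA was in 5 of 6 H1 windows, and in 16.4% of the 55, against 8.22%. The E2F letters were in 9 of 55 (16.4%), against 2.60%, and not in the Slbp window. Many H2A and H2B genes lie back to back and share a promoter, so their windows are not independent, and a match is only a description of letters. The 2 promoters below belong to members whose levels are given further on, with the letters of these motifs on either strand in capitals.
Hist1h1e, chr13:23622509-23622808, minus strand: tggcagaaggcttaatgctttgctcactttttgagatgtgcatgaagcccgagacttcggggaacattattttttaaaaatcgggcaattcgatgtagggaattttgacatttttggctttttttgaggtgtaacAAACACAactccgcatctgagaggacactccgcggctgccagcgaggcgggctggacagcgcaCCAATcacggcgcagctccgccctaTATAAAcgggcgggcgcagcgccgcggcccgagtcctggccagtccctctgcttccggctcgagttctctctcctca
Hist1h2bm, chr13:21721794-21722093, plus strand: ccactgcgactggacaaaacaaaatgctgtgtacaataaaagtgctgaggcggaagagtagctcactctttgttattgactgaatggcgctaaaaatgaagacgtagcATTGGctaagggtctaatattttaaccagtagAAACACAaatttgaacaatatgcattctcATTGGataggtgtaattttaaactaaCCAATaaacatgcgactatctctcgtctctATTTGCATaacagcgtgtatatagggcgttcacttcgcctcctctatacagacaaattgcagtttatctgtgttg

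Near-identical copies limit how far reads can be assigned to a single histone gene. The median Hist member shared 44.2% of its 50-base stretches with another member. The class medians were 58.0% for H2A, 57.2% for H3, 40.1% for H2B, 34.2% for H4 and 1.1% for H1. Hist1h3h, Hist1h2ao and Hist1h2ap shared over 90%, and 6 members shared none. Values of single core histone genes are therefore uncertain, those of H1 genes less so, and sums over a class are given beside them.

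Levels are given in CPM, that is UMIs scaled to a common library size. Values of single genes between genotypes carry TMM factors, and sums over genes and levels by cluster do not. The cells kept numbered 480, 945 and 1164 in the cKO libraries and 781, 430 and 1354 in the controls, with 7598511 to 17323152 UMIs per library. The germ cell marker list (Dazl, Ddx4 and 10 others) summed to 8657 to 9682 CPM in every library. Lists of other cell types summed to 0.635 to 1.45 CPM for Leydig cells (5 genes, with Hsd3b1 and Insl3 at 0), 6.03 to 23.7 for Sertoli cells, 3.45 to 9.34 for stromal cells, 32.3 to 54.03 for endothelial cells and 5.89 to 27.3 for erythroid cells. In the endothelial list Pecam1 alone stood at 30.9 to 51.8 CPM with TMM factors, and every other marker was at 1.86 or less in each library. The macrophage list stood at 51.7 CPM in control 2 and at 2.14 to 8.49 in the other 5 libraries. In control 2 the gene Pf4 alone was at 46.2 CPM with TMM factors, and each of the other 7 markers was at 1.42 or less. Rb1 itself was at 3.35, 3.72 and 3.64 CPM in the cKO libraries and at 10.3, 8.64 and 7.12 CPM in the controls, without overlap, with an adjusted p of 0.415 by edgeR's quasi-likelihood test. A 3′ tag may lie outside the deleted part, so this need not check the deletion. The libraries shared 9 barcode sequences, carried by 18 barcodes.

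**Figure D1:**
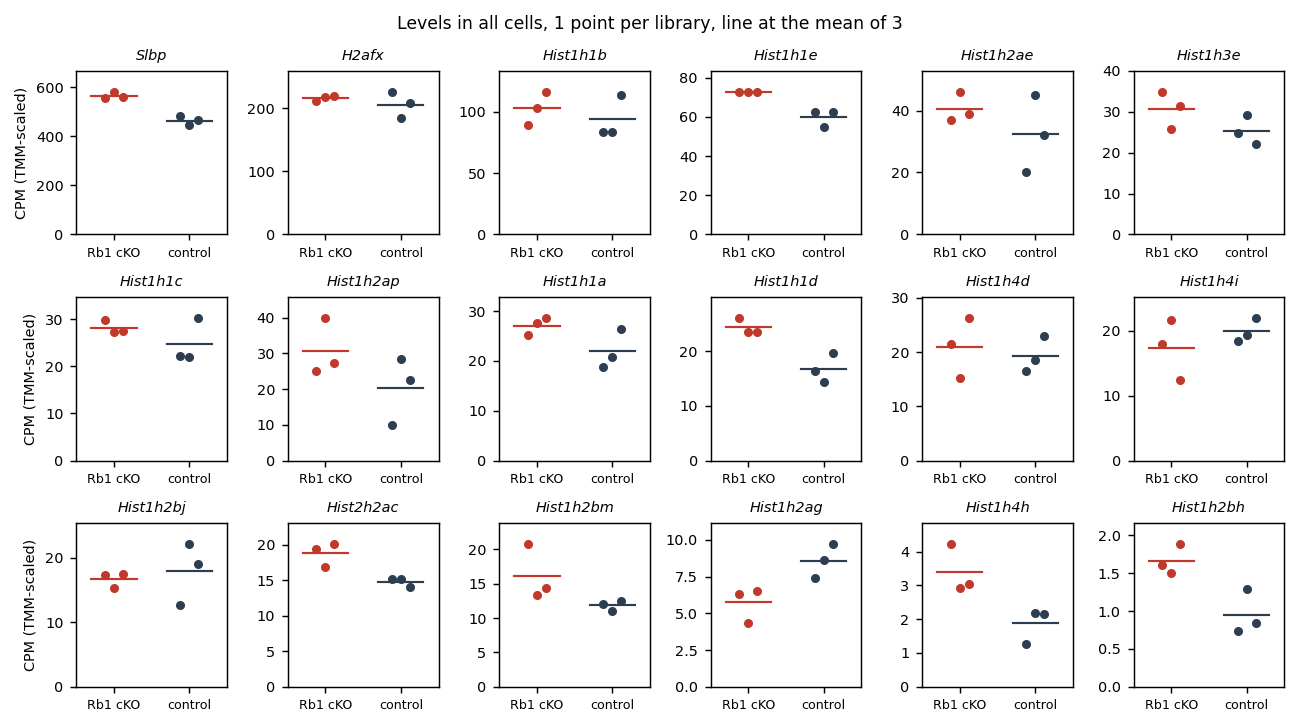
Level of Slbp, H2afx and the Hist members named by rule in all cells, in TMM-scaled CPM, with 1 point per library and a line at the mean of 3 libraries for Rb1 cKO (left) and control (right). Slbp, Hist1h1e and Hist1h1d show no overlap between the genotypes, while H2afx and Hist1h1b overlap.

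Across all cells, most histone genes had somewhat more transcripts in cKO samples than in controls, but no member passed the threshold. The test covered 54 members, 52 of them Hist genes, since 11 members had too few counts. It called 0 of the 54 at an adjusted p under 0.05, with 0.0% called among all 11540 genes tested. Unadjusted p was under 0.05 for 10 members that were higher in cKO samples, where 1.78% of all genes were, and for 2 that were lower, where 1.73% of all genes were. The libraries of the genotypes did not overlap for 8 members that were higher in cKO samples, against 4.71% of all genes, and for 1 that was lower, against 4.22%. The log2 fold change was above 0 for 38 of the 54 members, against 50.1% of all genes, and its median was 0.28 among the members and 0.00 over all genes. That median was 0.17 without control 1 and 0.11 without the cells of the histone-rich cluster 2 described below. Members that share sequence or libraries do not move independently, so these counts are descriptions.

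Summed over all 63 Hist members, the cKO libraries had 644, 595 and 626 CPM and the controls 472, 567 and 564. Every cKO library stood above every control, with means of 621 ± 25.0 and 534 ± 54.2 (SD, n = 3 each), and control 1 was the lowest of the 6. In sums of this kind, more cells in S phase and more RNA per cell cannot be told apart. The list of 24 core S phase genes, which includes Slbp, moved the same way, with 3931, 3748 and 4057 CPM in cKO libraries and 3493, 3569 and 3322 in controls. All 24 had a log2 fold change above 0 (median 0.17), against 50.1% of all genes, and 0 were called. Higher values in cKO samples went with an unadjusted edgeR p under 0.05 for 8 genes, against 1.78%, and with no overlap for 10, against 4.71%. The part of this list in the histone values was not tested.

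Slbp, the stem-loop binding protein gene, had the smallest unadjusted p of the members. It had 557, 581 and 561 CPM in the cKO libraries and 481, 446 and 467 CPM in the controls. All cKO libraries were above all controls, and the cKO libraries lay closer together than the distance between the genotypes. The means were 566 ± 13.2 and 465 ± 17.9 CPM (SD, n = 3 each), the log2 fold change was 0.28 ± 0.06 (SE) and the unadjusted edgeR p was 0.00142. Its adjusted p over all genes was 0.994, so the difference did not pass the threshold.

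The linker histones H1, which bind the DNA between nucleosomes, made up 17595 of the 42290 Hist UMIs, and all 5 tested H1 genes had a log2 fold change above 0, with a median of 0.27. Their summed level was 252, 256 and 263 CPM in cKO libraries and 204, 201 and 243 in controls, without overlap. Hist1h1e stood at 72.7, 72.8 and 72.7 CPM in cKO libraries and at 62.7, 55.1 and 62.5 CPM in controls. Its cKO libraries were nearly equal and all above the controls, with a log2 fold change of 0.27 ± 0.08 (SE), an unadjusted p of 0.00732 and an adjusted p of 0.994 by edgeR. Hist1h1d stood at 26.0, 23.5 and 23.5 CPM in cKO libraries and at 16.4, 14.4 and 19.7 CPM in controls. It also did not overlap, and had the largest log2 fold change of the tested H1 genes, 0.52 ± 0.13 (SE), with an unadjusted p of 0.00275 and an adjusted p of 0.994 by edgeR.

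The other H1 genes overlapped between genotypes. Hist1h1b, the member of the Hist family with the most UMIs, had 89.4, 103 and 116 CPM in cKO libraries and 83.8, 83.8 and 113 CPM in controls. Control 3 was within the range of the cKO libraries, and the log2 fold change was 0.13 ± 0.14 (SE). It lay between 0.037 without cKO 3 and 0.30 without control 3, and was 0.059 without control 1, 0.063 without control 2 and 0.22 without cKO 1. Hist1h1a had 25.2, 27.5 and 28.6 CPM in cKO libraries and 18.7, 20.8 and 26.5 CPM in controls, with a log2 fold change of 0.30 ± 0.14 (SE), which was 0.19 without control 1 and 0.47 without control 3. Hist1h1c had 29.9, 27.4 and 27.4 CPM in cKO libraries and 22.2, 22.0 and 30.2 CPM in controls, where control 3 was the highest of all 6 libraries.

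Histone H2A and H2B form the dimers on the outside of the nucleosome. Of the H2A genes, 8 of 13 tested were above 0 in log2 fold change (median 0.29), and of the H2B genes 7 of 14 (median 0.03). The H2A sum was 149, 151 and 148 CPM in cKO libraries and 96.1, 159 and 124 in controls, where control 2 was the highest of all 6 libraries and control 1 the lowest. The H2B sum was 92.2, 71.8 and 83.8 in cKO libraries and 65.8, 82.6 and 80.4 in controls. Both sums overlapped between genotypes.

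Single H2A genes differed in direction. Hist2h2ac had 19.5, 16.9 and 20.1 CPM in cKO libraries and 15.2, 15.2 and 14.1 CPM in controls. It did not overlap and had a log2 fold change of 0.35 ± 0.12 (SE), with an unadjusted p of 0.0139 and an adjusted p of 0.994 by edgeR. Hist1h2ag had 6.32, 4.35 and 6.55 CPM in cKO libraries and 7.40, 8.64 and 9.69 CPM in controls. It was the only tested member whose cKO libraries all lay below the controls, with a log2 fold change of -0.58 ± 0.20 (SE), an unadjusted p of 0.0157 and an adjusted p of 0.994 by edgeR. Hist1h2ae, with 37.1, 46.0 and 38.9 CPM in cKO libraries and 20.01, 45.1 and 32.0 CPM in controls, and Hist1h2ap, with 25.0, 39.8 and 27.2 against 10.0, 28.4 and 22.5 CPM, both overlapped. Control 1 was the lowest library for both genes and the replicate 2 libraries were the highest of their genotypes. Hist1h2ap differed 3.96-fold between its highest and lowest library.

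Among H2B genes, Hist1h2bm had 20.7, 13.3 and 14.3 CPM in cKO libraries and 12.1, 10.96 and 12.4 CPM in controls. The groups did not overlap, but cKO 1 stood apart above the rest, and the log2 fold change was 0.43 ± 0.17 (SE). It was 0.22 without cKO 1 and 0.10 without the cells of cluster 2. Hist1h2bh, with 95 UMIs in all, had 1.61, 1.504 and 1.88 CPM in cKO libraries and 0.731, 1.29 and 0.838 CPM in controls, a log2 fold change of 0.86 ± 0.34 (SE). Hist1h2bj had 17.4, 15.3 and 17.4 CPM in cKO libraries and 12.6, 22.0 and 19.0 CPM in controls, and the controls spanned the cKO libraries. Hist1h2bc, chosen after its values were seen because it differs from its class below, had 10.5, 12.1 and 10.9 CPM in cKO libraries and 11.9, 17.3 and 23.5 CPM in controls. It overlapped by cKO 2 and control 1, with a log2 fold change of -0.66 ± 0.23 (SE), which was -0.36 without control 3.

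Histones H3 and H4 form the tetramer at the core of the nucleosome. Of 9 tested H3 genes, 6 were above 0 in log2 fold change (median 0.28), and of 11 H4 genes, 10 did (median 0.57). The H3 sum was 80.3, 60.8 and 70.8 CPM in cKO libraries and 57.8, 71.1 and 54.4 in controls, and the H4 sum was 70.6, 55.2 and 59.6 in cKO libraries and 48.0, 53.8 and 62.1 in controls. Both sums overlapped, so the median of the H4 genes came with sums of H4 counts that were not apart between the genotypes. Hist1h4h had 4.22, 2.93 and 3.03 CPM in cKO libraries and 1.28, 2.19 and 2.15 CPM in controls. It did not overlap, and it had a log2 fold change of 0.83 ± 0.29 (SE), an unadjusted p of 0.0179 and an adjusted p of 0.994 by edgeR.

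The H3 and H4 genes with the most UMIs overlapped. Hist1h3e had 34.8, 25.9 and 31.4 CPM in cKO libraries and 24.9, 29.1 and 22.1 CPM in controls, with a log2 fold change of 0.28 ± 0.14 (SE), which was 0.18 without cKO 1, 0.19 without control 3 and 0.15 without the cells of cluster 2. Hist1h4d had 21.5, 15.3 and 26.3 CPM in cKO libraries and 16.5, 18.6 and 23.0 CPM in controls. Hist1h4i had 18.0, 21.7 and 12.4 CPM in cKO libraries and 18.5, 19.3 and 21.9 CPM in controls, with a log2 fold change of -0.21 ± 0.19 (SE), which was -0.41 without cKO 2 and -0.0029 without cKO 3.

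H2afx encodes H2A.X, the variant that is phosphorylated around DNA breaks, and its mRNA is known in both a stem-loop and a polyadenylated form. It had 210, 218 and 219 CPM in cKO libraries and 225, 184 and 207 CPM in controls. Control 1 was above all cKO libraries, and the log2 fold change of 0.07 ± 0.08 (SE) was smaller than its error. It was 0.14 without control 1 and -0.0017 without control 2.

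**Figure D2:**
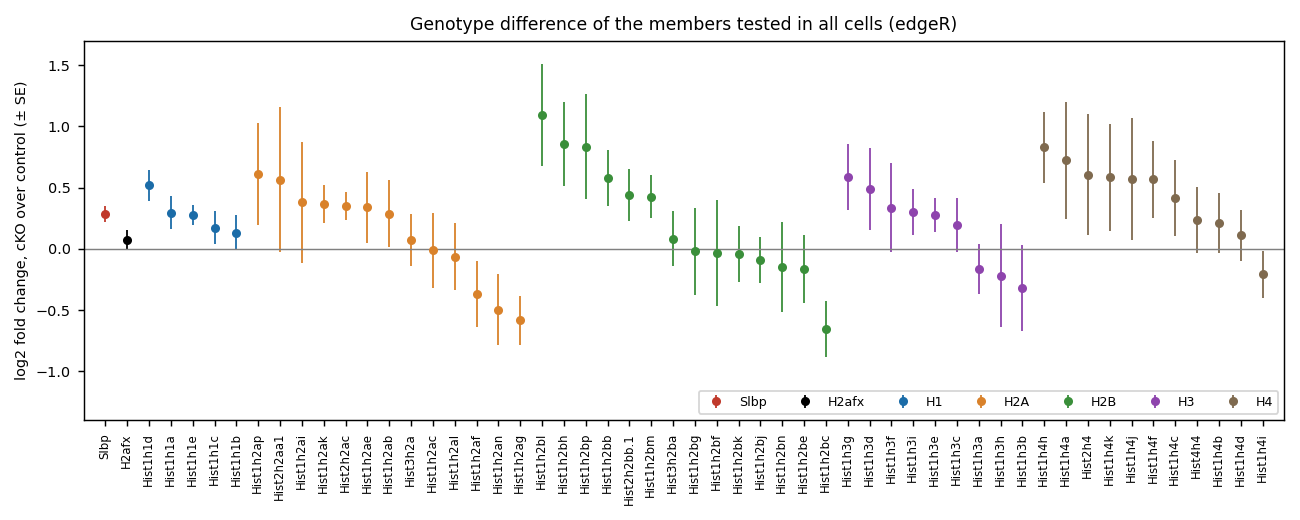
Log2 fold change of cKO over control in all cells for the 54 tested members, coloured by histone class, with bars of 1 SE. Most points are above 0, with a median of 0.28, and the largest values have wide bars, as for Hist1h2bl at 1.09 ± 0.41.

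The factors that act on histone mRNA and on new histones had smaller median differences. Of 21 genes of histone mRNA processing, transcription and decay, 20 matched the table (Symk did not). None was called, and 13 were above 0 in log2 fold change (median 0.04). Besides Slbp, an unadjusted p under 0.05 went with higher values in cKO samples for Casp8ap2, a factor of histone gene transcription and pre-mRNA cleavage, at 101 ± 5.95 against 85.9 ± 4.19 CPM in controls (SD, n = 3 each), and Lsm10, a subunit of the U7 particle, at 65.9 ± 4.08 against 57.3 ± 2.88 CPM. The most abundant genes of the list after and before Slbp, the spliceosomal proteins Snrpd3 and Snrpb, had log2 fold changes of -0.06 and 0.02.

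Of 20 histone chaperones and assembly factors, 0 were called, 16 had a positive log2 fold change, and the median was 0.06. Asf1b, a chaperone of H3 and H4, had 113 ± 9.89 CPM in cKO libraries and 93.9 ± 3.18 CPM in controls (SD, n = 3 each). Chaf1b, a subunit of the chromatin assembly factor CAF-1, had 56.9 ± 5.74 CPM in cKO libraries and 45.9 ± 3.78 CPM in controls. Both groups of libraries stood apart, with unadjusted p of 0.0102 for Asf1b and 0.0129 for Chaf1b by edgeR, and both had an adjusted p of 0.994. The most abundant of the list were Npm1, Hat1 and Nasp, with log2 fold changes of -0.02, 0.07 and 0.14. Among 10 replication-independent histone genes, which are expressed outside S phase and polyadenylated, 0 were called and 6 were above 0 in log2 fold change (median 0.01). The most abundant, H3f3b, H2afz and H2afv, had log2 fold changes of 0.03, 0.14 and 0.00. Cenpa, the centromeric H3, had 233 ± 9.69 CPM in cKO libraries and 275 ± 42.5 CPM in controls, and overlapped.

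The deposited metadata place the cells in 5 clusters, numbered 0 to 4, that the authors drew from the expression of all genes. Since the histone genes took part in drawing them, levels by cluster are given as a description with no test. Cluster 2 was the histone-rich one. Over the 6 libraries, the summed Hist level averaged 1354 CPM in cluster 2, 965 in cluster 4, 620 in cluster 0, 562 in cluster 3 and 221 in cluster 1. Each of the 5 classes was highest in cluster 2 and lowest in cluster 1, while H2B and H4 had lower averages in cluster 0 than in cluster 3. H1 had 615 CPM in cluster 2 and 63.7 in cluster 1, and H2A had 292 and 39.9. H2B stood at 167 and 49.3, H3 at 165 and 31.7, and H4 at 116 and 36.8 in clusters 2 and 1.

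**Figure D3:**
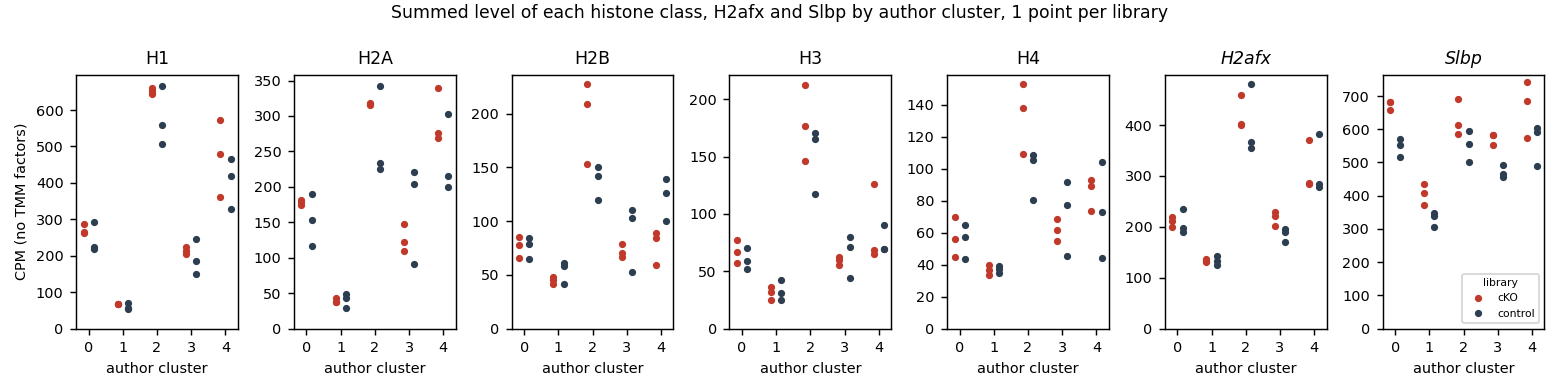
Summed level of each histone class, of H2afx and of Slbp in the 5 author clusters, in CPM, with 1 point per library, cKO to the left of control. On average all 5 classes are highest in cluster 2 and lowest in cluster 1, while Slbp is about as high in clusters 0 and 4 as in cluster 2.

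H2afx had the same order of clusters as the summed Hist level, with averages of 411 CPM in cluster 2, 315 in cluster 4, 209 in cluster 0, 201 in cluster 3 and 133 in cluster 1. Slbp had another order and averaged 611 in cluster 0, 614 in cluster 4, 590 in cluster 2, 523 in cluster 3 and 367 in cluster 1, and the libraries of clusters 0, 2 and 4 overlapped. The list of S phase genes, Slbp included, was highest in cluster 0 at 4332 CPM, with 3903 in cluster 2 and 2802 in cluster 1, and the G2 and M phase list was highest in cluster 1 at 4780, with 3718 in cluster 2 and 2714 in cluster 0. Cluster 2, with the most histone mRNA, lay between clusters 0 and 1 in the sums of both lists, but not in every gene. In clusters 0, 1 and 2, Prim1 of the S phase list had 134, 86.7 and 166 CPM, and Cdc6 had 50.6, 35.0 and 11.9. In the G2 and M phase list, Top2a had 384, 299 and 653 CPM and Ccnb2 had 296, 345 and 216. These genes were chosen after their values were seen. The replication-independent histone genes summed to 6015 in cluster 2 and 5395 in cluster 1.

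By gene, 58 of the 63 Hist members had a higher mean in cluster 2 than in cluster 1, and 40 of them in all 6 libraries. The median ratio of the members was 5.90. Over all 11540 genes tested in all cells, the median was 0.984 and 198 genes (1.72%) exceeded a ratio of 2. The limit for the members was a ratio of 1. The share of all genes above 1, or higher in all 6 libraries, was not counted. The ratio was 16.3 for Hist1h2af, 15.3 for Hist1h1b and 10.4 for Hist1h1e, whereas H2afx had 3.08 and Slbp 1.61. The 5 members below 1 were Hist1h2bc, Hist1h4i, Hist3h2a, Hist2h2be and Hist2h3c1, and of these only Hist1h2bc, Hist1h4i and Hist3h2a had 100 UMIs or more. Hist1h2bc was lower in cluster 2 than in cluster 1 in 6 of 6 libraries, averaging 7.18 and 19.4 CPM, with 12.1 in cluster 0. Hist1h4i was nearly level, with 17.4 in cluster 2 and 19.5 in cluster 1.

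**Figure D4:**
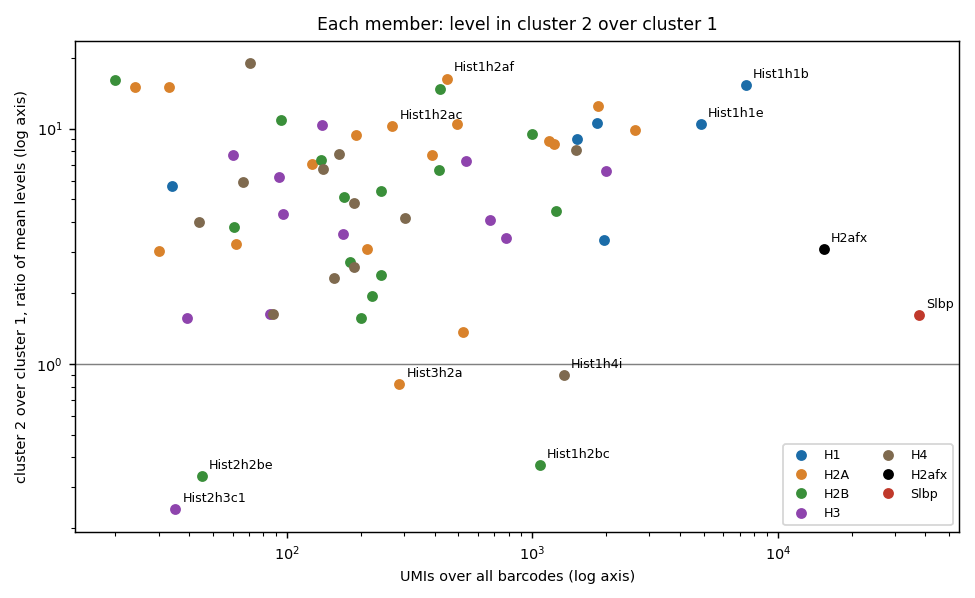
Ratio of the mean level in cluster 2 over that in cluster 1 for each member, against its UMIs over all barcodes, both on log axes, coloured by class. Hist1h1b lies at 15.3 and Hist1h1c at 3.36, Slbp lies at 1.61, and Hist1h2bc at 0.37 lies below 1.

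Genotype was compared inside each cluster that had at least 20 cells in every library. This left out cluster 4, with 10 to 27 cells per library. In cluster 2 the summed Hist level was 1570, 1370 and 1491 CPM in cKO libraries and 1327, 1290 and 1077 in controls, without overlap. Cluster 2 held 13.5%, 14.3% and 12.2% of the cells of the cKO libraries and 9.60%, 10.5% and 13.1% of those of the controls. Cluster 1, the poorest in histone mRNA, held 36.25%, 33.8% and 33.5% of cells in the cKO libraries and 38.4%, 37.7% and 38.3% in controls. The cluster 1 shares did not overlap, and their part in the all-cell values was not tested. Of 35 members tested in cluster 2, 0 were called, where 0.0% of 7895 genes were. Unadjusted p was under 0.05 for 7 members with higher values in cKO samples (Hist1h1c, Hist1h1d, Hist1h2ak, Hist1h2bb, Hist1h2bl, Hist1h2bm and Hist1h4h), against 1.89% of all genes, and for 0 with lower values, against 2.15%. Hist1h1c, Hist1h2bm and Hist1h4c were higher without overlap, 3 of 35 against 4.46% of genes, and 0 were lower without overlap, against 4.84%. Hist1h2bm had 71.4, 37.9 and 51.5 CPM in cKO libraries and 36.3, 33.6 and 28.7 CPM in controls within cluster 2. Its groups did not overlap, though cKO 2 came close to control 1, and the log2 fold change was 0.70 ± 0.22 (SE), with an unadjusted p of 0.00525 and an adjusted p of 0.9996 by edgeR. Hist1h1c had 67.2, 63.3 and 58.8 CPM in cKO libraries and 42.2, 45.9 and 52.6 CPM in controls there, also without overlap.

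In cluster 1, the cluster poorest in histone mRNA, the Hist sums overlapped, with 234, 208 and 216 CPM in cKO libraries and 184, 245 and 242 in controls. Of 25 members tested, 0 were called (0.0% of 9889 genes), 1 was higher at an unadjusted p under 0.05 (Slbp, against 1.53% of genes) and 1 lower (Hist1h2bc, against 1.84%). Hist1h2bc had 13.6, 17.4 and 12.4 CPM in cKO libraries and 18.6, 26.2 and 28.1 CPM in controls in this cluster. It was the 1 member lower without overlap, against 4.57% of genes, and Slbp the 1 member higher, against 4.65%. In cluster 0 the Hist sums also overlapped, with 680, 604 and 665 CPM in cKO libraries and 502, 622 and 647 in controls. Of 42 members tested in cluster 0, 0 were called (0.0% of 10091 genes). There 4 members were higher at an unadjusted p under 0.05 (Hist1h1d, Hist1h2bl, Hist2h2ac and Slbp, against 1.96% of genes) and 1 was lower (Hist1h2ag, against 1.92%). Hist1h1d, Hist1h1e, Hist1h3g, Hist2h2ac and Slbp, 5 members, were higher there without overlap, against 4.87% of genes, and 0 were lower, against 4.8%. The Hist sums of cluster 3 overlapped as well, with 528, 555 and 515 CPM in cKO libraries and 384, 643 and 747 in controls. In cluster 3, 0 of 15 members were called (0.0% of 5996 genes), and Hist1h1d and Slbp were higher at an unadjusted p under 0.05, where 1.68% of genes were. H2afx and Slbp, 2 members, were higher there without overlap, against 5.27% of genes, and 0 were lower, against 4.29%. Cluster 3 had 25 cells in control 3, with a median of 4654 UMIs, and its macrophage list stood at 589 CPM in control 2 and at 1.71 to 12.2 in the others. Pf4 alone made up 95.8 of the mean of 103 CPM of that list in cluster 3. The stromal list there stood at 70.9 CPM in control 2, 85.7 in control 3 and 7.95 to 24.4 in the others. For the Sertoli list the values were 85.7 CPM in control 3, 54.6 in cKO 2 and 3.98 to 29.0 in the others. The part of these in the cluster 3 values was not tested. Among the members tested, the median log2 fold change was 0.07 in cluster 0, 0.06 in cluster 1, 0.32 in cluster 2 and 0.23 in cluster 3. Over all genes tested it was -0.0018, -0.00095, -0.0075 and -0.0021 in the same clusters. The set of members tested differed between clusters.

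Slbp was higher in cKO libraries in 3 of the 4 clusters without overlap. In cluster 0 it had 662, 679 and 671 CPM in cKO libraries and 571, 545 and 533 CPM in controls, a log2 fold change of 0.29 ± 0.07 (SE). In cluster 1 it had 420, 403 and 381 CPM in cKO libraries and 340, 300 and 358 CPM in controls, a log2 fold change of 0.27 ± 0.08 (SE). The log2 fold changes in clusters 0 and 1 were close to that in all cells, and neither cluster's libraries overlapped. In cluster 3 it had 565, 549 and 601 CPM in cKO libraries and 492, 448 and 482 CPM in controls, a log2 fold change of 0.27 ± 0.10 (SE). In cluster 2 it had 597, 688 and 592 CPM in cKO libraries and 596, 550 and 516 CPM in controls, which overlapped, with 0.18 ± 0.09 (SE). That value was 0.11 without cKO 2 and 0.23 without control 1. None of the 4 passed the threshold. Whether genotype differences varied between clusters was tested by the interaction of genotype and cluster, which called 0 of 49 members (0.0% of 10029 genes). At an unadjusted p under 0.05 it had 4 members (Hist1h1c, Hist1h2bh, Hist1h2bm and Hist1h2bn), against 4.73% of genes.

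Per cell, depth was equalised by drawing 10000 UMIs from each cell, which kept 4698 cells and left out 456 that were shallower. The loss was uneven, with 218 cells left out in control 3 and 13 to 91 in each of the others. The mean Hist count was 6.31, 5.98 and 6.05 UMIs per cell in cKO libraries and 4.47, 5.57 and 5.62 in controls. Cells with 10 or more Hist UMIs made up 24.4%, 22.2% and 22.8% of the cKO libraries and 12.9%, 20.1% and 19.7% of the controls. The cKO libraries stood above the controls in both measures, with control 1 the lowest. The median was 4 Hist UMIs per cell in every cKO library, in control 2 and in control 3, and 3 in control 1. Within cluster 0 the means overlapped, with 6.83, 6.16 and 6.64 in cKO libraries and 4.87, 6.05 and 6.52 in controls. By cluster, the mean over libraries was 13.5 UMIs in cluster 2, 9.53 in cluster 4, 6.18 in cluster 0, 5.83 in cluster 3 and 2.20 in cluster 1. The cluster 3 mean includes control 3 at 9.33 from only 6 cells, with the others at 3.86 to 6.49. Cells with no Hist UMI made up 15.5% of cluster 1 (7.53% before thinning) and 0% of cluster 2 (0.117% before thinning). No cell type without histone mRNA was present to give a background, and the part of free RNA in the droplets was not tested.

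**Figure D5:**
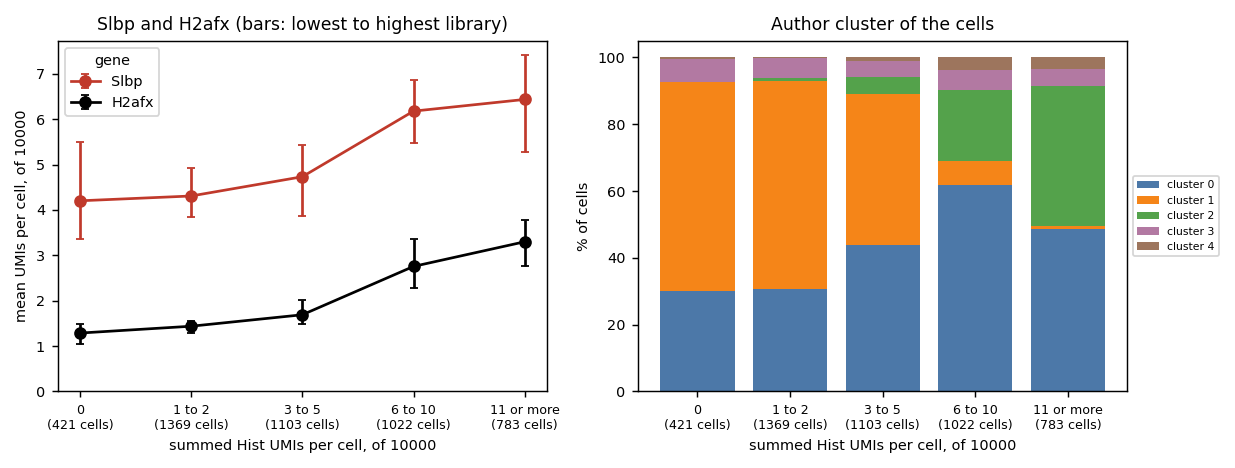
Cells grouped by their Hist UMIs out of 10000 drawn. Left, mean UMIs per cell of Slbp and H2afx, with bars from the lowest to the highest library. Right, the share of each author cluster in percent. Slbp averages 4.20 UMIs in the 421 cells with none and 6.43 in the 783 cells with 11 or more, and cluster 2 makes up 0% and 42.0% of these cells.

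Cells richer in histone mRNA also had more Slbp and H2afx. Slbp averaged 4.20 UMIs per cell in the 421 cells without a Hist UMI, 4.31 in those with 1 to 2, 4.73 with 3 to 5, 6.18 with 6 to 10 and 6.43 with 11 or more. H2afx averaged 1.29, 1.44, 1.69, 2.75 and 3.30 UMIs in the same bins. Cluster 1 made up 62.7% of the cells without a Hist UMI and 0.894% of those with 11 or more, while cluster 2 made up 0% and 42.0% and cluster 0 29.9% and 48.5%. All bins draw on the same 6 libraries, and the relation is given as a description of these cells.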

How the data were processed

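The deposited table holds raw UMI counts. Cell Ranger, Seurat 3.0 and build mm10 are listed, with no role or parameter, per the submitters' processing notes. The annotation release is not given in the sources used here. Sample and cluster of each cell come from the deposited metadata (clusters at resolution 0.2). Barcodes needed 500 genes or more and less than 10% of UMIs from mitochondrial genes, which kept 5154 of 5160. Scrublet, run per sample in scanpy 1.11.5, called 160 cells doublets (3.10%), which were kept and removed in an alternative. Counts were summed per library, over all cells and per cluster, and tested with edgeR 4.0.16 (R 4.3.3): TMM, filterByExpr, robust quasi-likelihood test, two-sided, Benjamini-Hochberg over all genes tested, threshold 0.05. It was tried on simulated data, where the planted changes were larger than that of Slbp and lay in abundant genes only. How well it finds smaller changes or rarer members was not tested. CPM values of single genes carry TMM factors, and sums and cluster levels do not. DESeq2 1.42.0 was an alternative, beside other scalings, no low-count filter, a replicate block and leaving out each library. Stem-loops and shared 50-base stretches were sought in GENCODE M21 transcripts, and promoters are from RefSeq. The SE of a log2 fold change is its absolute value divided by the square root of the quasi-likelihood F. Depth limits the rarest members, and no interval beyond replicate SDs and these SEs is given.

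The members and lists were chosen with earlier results of these data known. The named genes are Slbp, H2afx, the 12 Hist members with the most UMIs, and those whose libraries did not overlap at an unadjusted p under 0.05 in all cells. In the other lists the 3 most abundant genes are named, with others below that p chosen after their values were seen. From the S phase and the G2 and M phase lists, single genes are named only by their cluster levels, also after these were seen.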

Additional observations from a re-analysis of the deposited data

How the results depend on the processing

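No member was called in all cells, in clusters 0 to 3 or in the interaction under any alternative that was run, and cluster 4 was too small to test. Against 12 of 54 members at an unadjusted p under 0.05, in either direction, with 3.51% of all genes, DESeq2 had 8 of 54 with 1.9% of all genes. Leaving out 1 library gave 7 (without cKO 1, 2.25% of all genes, or without control 1, 7.77%) to 15 (without cKO 2, 2.49%). The number of genes called over the whole table, 0, became 6 without a low-count filter, 4 with DESeq2, and 0 to 4 when 1 library was left out, with 4 without control 3. The 8 members without overlap that were higher in cKO samples became 9 to 21 with 1 library left out, since fewer libraries overlap less often. The counts were 21 of 56 without cKO 2 (8.84% of all genes), 17 of 58 without control 2 (8.47%), 16 of 54 without control 3 (9.20%) and 13 of 58 without control 1 (12.7%). Without cKO 1 or without cKO 3, with 55 members tested in each, the share of all genes is not given here. Nothing is therefore read from the counts of those fits, nor from the low end of the range. The log2 fold change of Slbp stayed between 0.26 and 0.31 over all alternatives in all cells, with adjusted p of 0.533 to 0.99996. With 1 library left out, the log2 fold change ranged from -0.10 to 0.30 for Hist1h4d, from -0.0017 to 0.14 for H2afx and from -0.29 to 0.072 for Hist1h2bj, and the cause of these sign changes was not tested. Leaving out control 1 lowered the median of the members to 0.17, and leaving out cluster 2 lowered it to 0.11. A replicate block called 0 members, with 15 at an unadjusted p under 0.05 in place of 12, where all genes had 4.38% in place of 3.51%. Same-numbered libraries deviated with correlations of -0.132, 0.231 and 0.197. For cKO 2 and cKO 3 the same-numbered control was the best match, while cKO 1 correlated best with control 3, at 0.121. With so few libraries these values cannot decide whether the numbers pair them. The count of 58 members higher in cluster 2 than in cluster 1 was 57 to 58 under the alternatives, which were chosen after seeing the data. All of them kept the same cluster labels, and the histone genes took part in drawing the clusters. A stable count is therefore no further support for the pattern. Depth limits members such as Hist1h2bh, with 8 to 31 UMIs per library, and poly(A) priming limits them all.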
